A study of Mus musculus with 6 samples.

Results

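The hexosamine pathway converts the glycolytic intermediate fructose 6-phosphate into UDP-N-acetylglucosamine (UDP-GlcNAc), the activated sugar from which cells build N-glycans, hyaluronan and other glycosaminoglycans and the O-linked GlcNAc of nuclear and cytosolic proteins. Glutamine:fructose-6-phosphate amidotransferase commits sugar to the pathway with glutamine as nitrogen donor, and acetyl-CoA and UTP enter at later steps, so the pathway draws on sugar, amino acid, lipid and nucleotide metabolism together. The same cells make UDP-glucose and from it UDP-glucuronic acid, the other precursor of glycosaminoglycans. Ribosome-protected fragments of 8 genes for these steps are described here: Gfpt1, Gfpt2, Gnpnat1, Pgm3, Uap1, Ugp2, Ugdh and Ogt. They were taken by symbol in GENCODE M21 from the 53465 genes of the deposited count table, and all 8 were among the 8200 genes with enough counts to be tested. The list was chosen by pathway knowledge together with the measured difference between KO and WT, since the lower Gfpt2 counts of the KO libraries were known when it was drawn up. The KO and WT values of the 8 genes below are a description and the calls among them are not independent evidence.

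The libraries come from ID8, a cancer line that arose from mouse ovarian surface epithelium. KO denotes 3 libraries of cells with a guide RNA against Nat10 (sgNat10), and WT denotes 3 libraries of cells with a control guide (sgNC). NAT10 is an RNA acetyltransferase and the known writer of N4-acetylcytidine, and the series asks how translation differs without it. All libraries received cycloheximide at 100 µg/mL for 2 minutes to hold ribosomes on mRNA, and fragments of 25 to 34 nt were kept. A count therefore reflects both the amount of an mRNA and its occupancy by ribosomes, which cannot be told apart here. The labels name neither the cut site nor separate clones or cultures, so a p-value here covers the spread among these libraries alone, which may be technical.

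Total counts were 2234305 to 3126208 in the KO libraries and 1687466 to 2148715 in the WT libraries. Nat10 itself averaged 106 ± 43.1 CPM in KO and 112 ± 53.1 CPM in WT (SD, n = 3 each), so KO and WT below are the labels of libraries and not a measured loss of Nat10. CPM are counts scaled to the TMM-adjusted size of each library. The gene counts of a library had a local peak far above single reads, at 42 to 60 in KO and at 15 to 39 in WT. A count divided by that peak is called molecule equivalents, and a gene near or under 1 molecule equivalent is measured poorly. On that scale the library totals were 60506, 48572 and 52103 in KO replicates 1, 2 and 3, against 112498, 102320 and 46442 in WT. The KO libraries thus had more counts but fewer molecule equivalents than WT replicates 1 and 2. The part of this in the results below was not tested. Of 8 epithelial and mesothelial markers of the line, Krt7 was near 0 and the others were present, and the summed level was 7647 to 8467 CPM in KO and 8684 to 9101 CPM in WT. Of these Krt18 and Krt19 were called lower (log2 fold changes -1.74 and -0.92) and Msln higher (1.05), so the line's own markers also differed between the groups. The lowest log2 fold change among the 7 tested markers was -2.42, in a gene that was not called. The leukocyte list (7 genes) summed to at most 0.931 CPM in KO and 14.5 CPM in WT, and Itgam and Cd3e had no count. The endothelial list (4 genes) summed to at most 1.86 CPM in KO and 6.0 CPM in WT. The fibroblast list (4 genes) summed to 5.85 to 29.5 CPM in KO and 42.8 to 85.4 CPM in WT, mostly from Col1a1, while Thy1 had no count. The part of these marker differences in the results below was not tested.

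The genes Gfpt1 and Gfpt2 encode isoenzymes of the same amidotransferase, so it mattered first whether fragments of this length can tell them apart. Gfpt1 (ENSMUSG00000029992) lies on the plus strand of chromosome 6, from 87042846 to 87092197 in GRCm38, and Gfpt2 (ENSMUSG00000020363) on the plus strand of chromosome 11, from 49794178 to 49838613. Their longest annotated coding sequences, of 2091 and 2046 bases without the stop codon, were identical at 71.9% of 2046 aligned bases. The longest unbroken run that they shared was 23 bases, shorter than the shortest fragment kept. None of the 2067 windows of 25 bases in Gfpt1, and none of the 2022 in Gfpt2, occurred elsewhere in the genome or in a transcript of another gene. A perfectly matched fragment of either coding sequence therefore had no place to map outside its own gene. Untranslated regions and other transcripts of the 2 genes were not searched.

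The start of the coding sequences is shown to compare the isoenzymes, with capitals where they differ. The reading frame opens with the start codon and a cysteine codon, the cysteine that becomes the catalytic amino terminus of these amidotransferases. Within these 60 bases the genes differed at 19.
Gfpt1: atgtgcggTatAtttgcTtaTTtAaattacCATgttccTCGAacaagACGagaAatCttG
Gfpt2: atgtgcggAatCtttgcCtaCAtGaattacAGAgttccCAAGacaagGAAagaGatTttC

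The stretch with the longest shared run is shown next, with that run in capitals and 12 bases on each side. It covers coding positions 388 to 434 of Gfpt1 and 379 to 425 of Gfpt2, counted from the A of the start codon.
Gfpt1: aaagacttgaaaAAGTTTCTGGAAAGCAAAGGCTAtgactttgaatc
Gfpt2: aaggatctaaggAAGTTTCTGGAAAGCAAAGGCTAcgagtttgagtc

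The 60 bases in which the genes differed the most had 27 differences, again in capitals. They cover coding positions 1526 to 1585 of Gfpt1 and 1481 to 1540 of Gfpt2.
Gfpt1: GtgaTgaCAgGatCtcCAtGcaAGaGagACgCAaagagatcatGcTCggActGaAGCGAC
Gfpt2: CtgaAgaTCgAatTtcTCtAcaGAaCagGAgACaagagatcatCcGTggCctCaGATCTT

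Gfpt2 was the lowest of the 8 genes in KO relative to WT. Its counts were 110, 4 and 57 in KO replicates 1, 2 and 3, against 341, 475 and 600 in WT replicates 1, 2 and 3. In CPM these were 42.9, 1.71 and 17.7 in KO, against 207, 237 and 347 in WT. Every KO library lay below every WT library, and the gap between the groups was wider than the spread within either.

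The mean of Gfpt2 was 20.8 ± 20.8 CPM in KO and 264 ± 73.5 CPM in WT (SD, n = 3 each), a WT mean 12.7 times the KO mean. Its log2 fold change (KO minus WT) stood at -3.66 (SE 0.71, 95% interval -5.18 to -2.14). The SD in KO equalled the mean, and KO replicate 1 alone held more fragments than the other two together. On the scale of molecule equivalents the gene stood at 2.62, 0.0870 and 0.95 in KO and at 22.7, 22.6 and 15.4 in WT, so the size of the difference rests on very few molecules in KO.

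Across all 8200 tested genes, edgeR's quasi-likelihood test called 0.402% at an adjusted p under 0.05, with 0.220% called lower and 0.183% called higher in KO. Gfpt2 was the only member called, 1 of 8, with an edgeR adjusted p of 0.036, not far under the cut. By fold change it ranked as number 4 of the 18 genes called lower, a rank that rests on very few molecules in KO. Because the list was made with this fall known, nothing is read from the count of 1 of 8. The call was lost when WT replicate 1, WT replicate 2, WT replicate 3 or KO replicate 3 was left out, with log2 fold changes of -3.81, -3.73, -3.42 and -3.56. It was kept without KO replicate 1 (-4.70) and without KO replicate 2 (-3.12). With all libraries the call was also lost with limma-voom, with a filter of at least 50 counts in 3 libraries and with the replicate number as a block, at adjusted p = 0.13, 0.095 and 0.060.

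Gfpt1, the isoenzyme found in most tissues, was not called. Its CPM were 83.5, 207 and 114 in KO replicates 1, 2 and 3, against 146, 188 and 167 in WT replicates 1, 2 and 3. KO replicate 2 held the highest value of all and KO replicate 1 the lowest, so the WT values lay within the KO range. The means were 135 ± 64.2 CPM in KO and 167 ± 21.2 CPM in WT (SD, n = 3 each). The log2 fold change was -0.31 (SE 0.38, 95% interval -1.13 to 0.51). This interval does not overlap that of Gfpt2, though the difference between the genes was not tested.

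**Figure D1:**
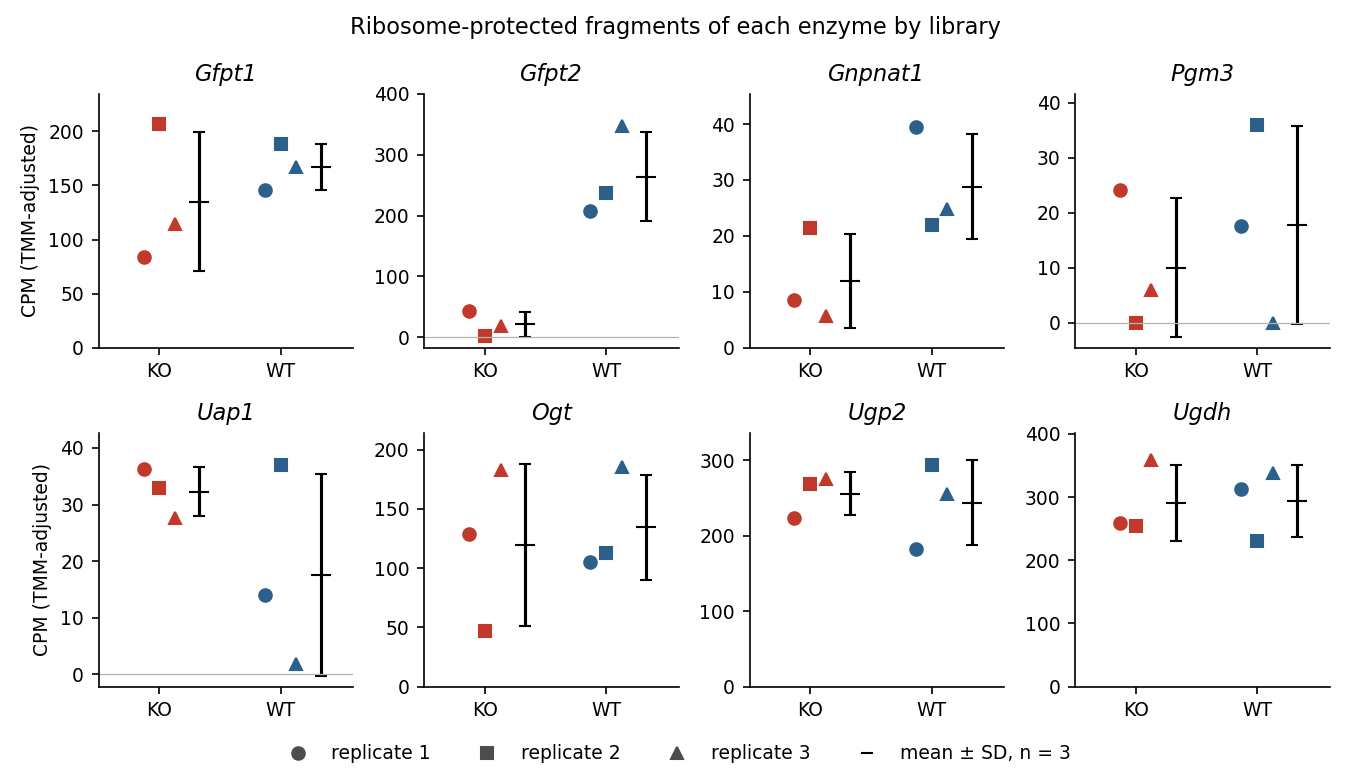
CPM of the 8 enzymes in each library, with KO on the left and WT on the right of each panel, 1 symbol per replicate, and the mean and SD over 3 libraries beside them. Gfpt2 lies between 1.71 and 42.9 CPM in KO and between 207 and 347 CPM in WT, while the KO and WT values of Gfpt1, Ugp2, Ugdh and Ogt overlap.

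The balance of the isoenzymes differed accordingly. Gfpt2 made up 34.0% of the summed Gfpt1 and Gfpt2 counts in KO replicate 1 (95% Wilson interval 29.0 to 39.3%), 0.821% in KO replicate 2 (0.320 to 2.09%) and 13.4% in KO replicate 3 (10.5 to 17.0%). In WT it made up 58.7% in replicate 1 (54.6 to 62.6%), 55.8% in replicate 2 (52.4 to 59.1%) and 67.5% in replicate 3 (64.3 to 70.5%). Gfpt2 thus held the larger part of amidotransferase fragments in each WT library and the smaller part in each KO library, with means of 16.1 ± 16.7% in KO and 60.6 ± 6.11% in WT (SD, n = 3 each).

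These intervals cover counting error only and treat each read as a molecule. With counts turned into rounded molecule equivalents they widened to 13.7 to 69.4%, 0 to 25.9% and 2.57 to 51.3% in KO, and to 43.4 to 72.9%, 41.0 to 70.1% and 44.9 to 81.2% in WT. On that scale the intervals of KO replicates 1 and 3 overlapped those of WT, and the interval of KO replicate 2 did not. The sum of both genes was 126, 209 and 132 CPM in KO replicates 1, 2 and 3, against 353, 426 and 514 CPM in WT. The groups did not overlap in that sum. KO replicate 2, with the least Gfpt2, had the most Gfpt1, whereas KO replicates 1 and 3 had less Gfpt1 than each WT library.

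**Figure D2:**
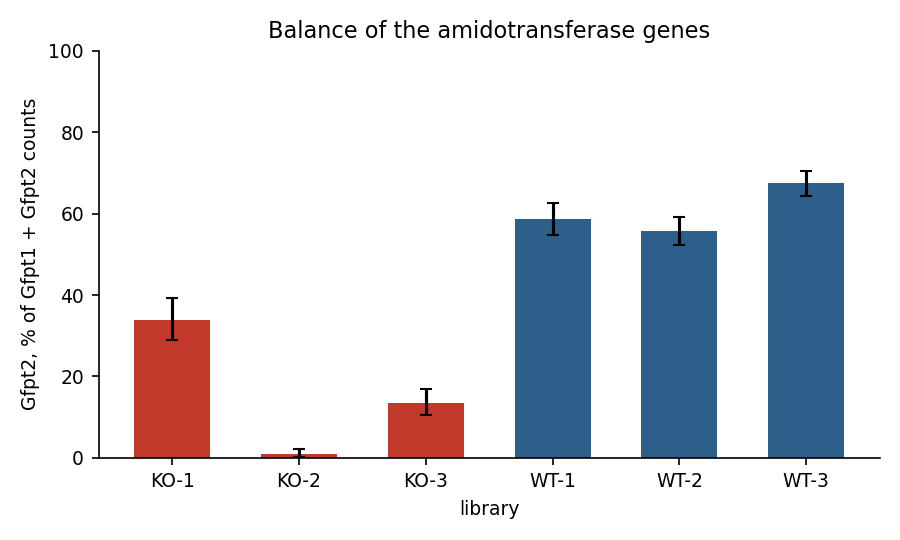
Share of Gfpt2 in the summed counts of Gfpt1 and Gfpt2, in percent, for each library (KO red, WT blue), with 95% Wilson intervals that cover counting error only. The KO shares are 34.0, 0.821 and 13.4% and the WT shares 58.7, 55.8 and 67.5%.

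The next steps of the pathway were sparsely covered. Gnpnat1 acetylates glucosamine 6-phosphate, Pgm3 moves the phosphate of the product from carbon 6 to carbon 1, and Uap1 joins it to UTP to give UDP-GlcNAc. None of these genes averaged more than 1.75 molecule equivalents over the 6 libraries.

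Gnpnat1 (chromosome 14, minus strand, 45376334 to 45404913) had 8.58, 21.4 and 5.58 CPM in KO replicates 1, 2 and 3, against 39.5, 22.0 and 24.9 CPM in WT. The groups did not overlap, but KO replicate 2 and WT replicate 2 differed by little. Such separation in either direction held for 14.9% of all tested genes with 7.93% lower and 6.94% higher in KO, and among the 8 enzymes it held for Gfpt2 and Gnpnat1. The log2 fold change of Gnpnat1 was -1.28 with an SE of 1.5, and it was not called. It ran from -2.01 without KO replicate 2 to -0.94 without KO replicate 3. Its counts are also uncertain. Of its 594 windows of 25 bases, 484 occurred in a transcript of Styx, a gene on the opposite strand of the same locus, and 350 in a processed pseudogene elsewhere in the genome. Styx had counts of 0, 0 and 0 in KO and 0, 17 and 0 in WT, and no source used here states the strand setting or the treatment of fragments with several matches.

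Pgm3 (chromosome 9, minus strand, 86554377 to 86571842) had 24.2, 0 and 5.89 CPM in KO replicates 1, 2 and 3, against 17.6, 36.0 and 0 CPM in WT. A count of 0 allowed up to 1.28 CPM in KO replicate 2 and 1.73 CPM in WT replicate 3 (3 counts, counting error only). These bounds treat each read as a molecule and are too tight, since the gene counts of these libraries peaked at 46 and 39. Each group had a library at 0 and a library above 20 CPM, and no difference was detectable with so few molecule equivalents (log2 fold change -0.83, SE 2.31). Single libraries set that value, which ran from -2.54 without KO replicate 1 to 0.18 without WT replicate 2. Its coding sequence overlaps Dop1a, on the opposite strand, in 63 of 1602 windows of 25 bases.

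Uap1 (chromosome 1, minus strand, 170141938 to 170174957) had 36.3, 33.0 and 27.6 CPM in KO replicates 1, 2 and 3, against 14.0, 37.0 and 1.73 CPM in WT. The KO libraries were close to each other, and WT replicate 2 was above all of them. The log2 fold change of 0.87 (SE 1.34) was not called and ran from 0.34 without WT replicate 3 to 2.03 without WT replicate 2. Uap1l1, a paralog of Uap1, averaged 267 ± 66.0 CPM in KO and 247 ± 80.1 CPM in WT (SD, n = 3 each, log2 fold change 0.11, SE 0.31). Per kb of coding sequence Uap1l1 averaged 175 CPM in KO and 162 CPM in WT, above the 20.6 CPM in KO and 11.2 CPM in WT of Uap1. Uap1 and Uap1l1 shared no window of 25 bases.

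Ogt, the transferase that puts GlcNAc from UDP-GlcNAc on serine and threonine of nuclear and cytosolic proteins, lies on the plus strand of chromosome X, from 101640060 to 101684351. It had 129, 47.1 and 183 CPM in KO replicates 1, 2 and 3, against 105, 113 and 185 CPM in WT. Replicate 3 was the highest library in each group and KO replicate 2 the lowest of all. The log2 fold change was -0.17 (SE 0.47, 95% interval -1.17 to 0.84), and it turned to 0.22 without KO replicate 2 and to 0.13 without WT replicate 3. Mgea5, the earlier symbol of the hydrolase Oga that removes the same sugar, averaged 114 ± 26.0 CPM in KO and 132 ± 30.6 CPM in WT (SD, n = 3 each, log2 fold change -0.21, SE 0.38).

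The UDP-glucose branch was the best covered. Ugp2 makes UDP-glucose from glucose 1-phosphate and UTP, and Ugdh oxidises it to UDP-glucuronic acid. Ugp2 (chromosome 11, minus strand, 21321138 to 21371201) had 223, 269 and 275 CPM in KO replicates 1, 2 and 3, against 182, 293 and 255.5 CPM in WT, and the KO values lay within the WT range. Its log2 fold change was 0.068 (SE 0.28, 95% interval -0.53 to 0.67). Ugdh (chromosome 5, minus strand, 65413221 to 65435949) had 259, 254 and 359 CPM in KO replicates 1, 2 and 3, against 313, 230.3 and 338 CPM in WT. Its log2 fold change was -0.015 (SE 0.27, 95% interval -0.59 to 0.56), and its sign was the opposite in 10 of 15 other settings. For both genes the interval left out a change of 1 log2 unit in either direction. In Ugdh, 127 of 1455 windows of 25 bases also lie in Gm43552, a gene model on the same strand that had no count in any library, and 77 in the pseudogene Gm14603, which had none either.

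**Figure D3:**
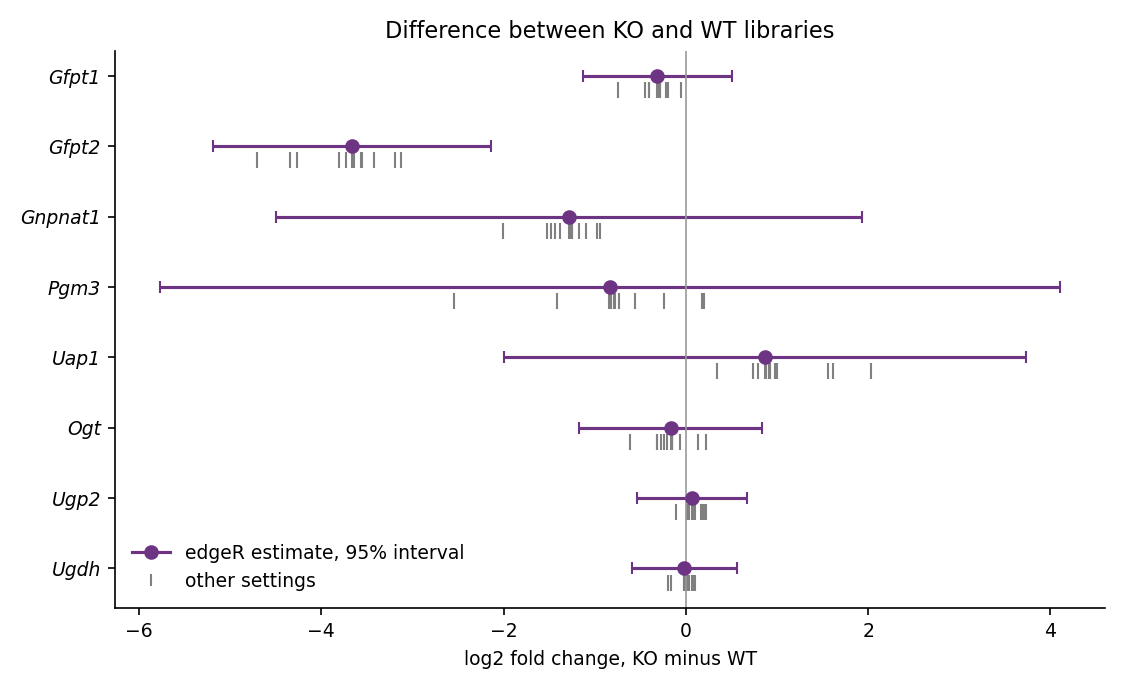
Log2 fold change of each enzyme, KO minus WT, with the 95% interval from edgeR (points and bars) and the estimates under the other settings tried (grey ticks). The interval of Gfpt2 runs from -5.18 to -2.14, and the intervals of the other 7 genes include 0.

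Per length of coding sequence the order of the genes was led by the UDP-glucose branch in both groups. In KO the means were 197 CPM per kb for Ugdh, 168 for Ugp2, 64.5 for Gfpt1, 38.1 for Ogt, 20.6 for Uap1, 19.2 for Gnpnat1, 10.2 for Gfpt2 and 6.17 for Pgm3. In WT they were 199 CPM per kb for Ugdh, 160 for Ugp2, 129 for Gfpt2, 79.9 for Gfpt1, 46.6 for Gnpnat1, 42.8 for Ogt, 11.2 for Uap1 and 10.99 for Pgm3. Neighbours in this order overlapped over their 3 libraries, except Ugp2 and Gfpt1 in KO, and Gfpt2 and Gfpt1, Gfpt1 and Gnpnat1, and Ogt and Uap1 in WT. Gfpt2 held place 7 in KO and place 3 in WT, where it stood above 23.0% and 87.3% of 8087 tested protein-coding genes. Ugdh stood above 92.7% of them in KO and 92.4% in WT.

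**Figure D4:**
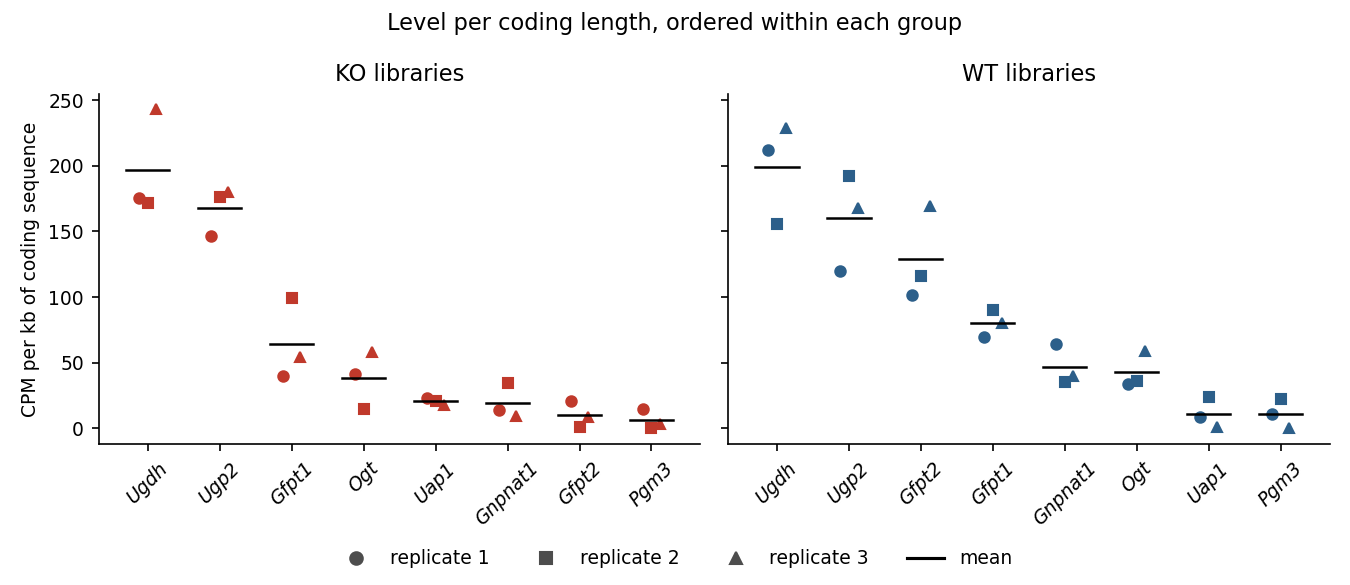
Level of each enzyme in CPM per kb of its longest coding sequence, ordered by the mean within KO (left) and within WT (right), with 1 symbol per replicate and a bar at the mean. Gfpt2 averages 10.2 CPM per kb in KO and 129 in WT, while Ugdh and Ugp2 lead both orders.

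Summed over the 8 genes, the libraries held 807, 833 and 987 CPM in KO replicates 1, 2 and 3, against 1025, 1157 and 1319 CPM in WT. Without Gfpt2 the sums were 764, 831 and 969.8 CPM in KO, against 818, 919.9 and 972 CPM in WT, and the groups overlapped. The median log2 fold change of the 8 was -0.24, with 6 negative, beside -0.016 over all tested genes, of which 51.0% were negative. The list was made with the fall of Gfpt2 known, so nothing is read from this difference. Across the 6 libraries the log2 CPM of Gfpt1 and Gfpt2 had a Pearson r of -0.014, a description over all libraries that includes the group difference. The genes whose log2 CPM was most like that of Gfpt2 among 5723 protein-coding genes of at least 20 CPM were Rbmx, Nsun2 and Ttc9c, with r of 0.995, 0.987 and 0.981 over 6 libraries, and none of these was called. Rbmx, an RNA-binding protein, averaged 38.0 ± 23.0 CPM in KO and 152 ± 32.8 CPM in WT (SD, n = 3 each). For Gfpt1, Map7d1 and Ppil4 were among the most alike, with r of 0.983 and 0.977. So many genes were compared over so few libraries that high values of r are common, and all points share the same libraries and depth.

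The GC content of the coding sequences did not enter the choice of the 8 genes. All were below the median GC content of the tested protein-coding genes (52.1%), from 40.1% for Ugp2 to 50.3% for Gfpt2. Ugp2 and Gnpnat1 stood above only 1.22% and 3.97% of those genes in GC content, whereas Gfpt2 stood above 39.8%. NAT10 also acetylates the tRNAs for serine and leucine. Codons for these amino acids made up 13.6% (Uap1) to 18.4% (Gnpnat1) of the coding sequence, against a median of 17.7%, and Gfpt1 and Gfpt2 had 14.8% and 16.0%. Coding lengths ran from 618 bases for Gnpnat1 to 3138 for Ogt.

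Around the pathway, 8 lists of 95 neighbouring genes were described in the same fit, and 68 of them had enough counts to be tested. In these lists 1 gene was called lower in KO and none was called higher, beside 0.402% called over all 8200 tested genes. By the same edgeR test 7 had an unadjusted p under 0.05, beside 532 of the 8200. The median log2 fold change of the 68 was -0.29, with 44 negative, beside -0.016 and 51.0% negative over all tested genes. The lists were written with earlier results known, so nothing is read from these counts. Groups that did not overlap in CPM occurred in 14.9% of all tested genes, and nothing is read from such separations below.

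The gene called was Pgm1, the phosphoglucomutase that interconverts glucose 1-phosphate and glucose 6-phosphate and so links Ugp2 to glycolysis. It had 76.5, 74.1 and 89.3 CPM in KO replicates 1, 2 and 3, against 342, 458 and 563 CPM in WT. The groups lay far apart relative to the spread within each. The log2 fold change was -2.51 (SE 0.29, edgeR adjusted p = 0.00093), a result already known when the lists were written, and it was called in each of the 15 other settings. Pgm2, a related mutase named after its values were seen, had 0.780, 147 and 43.7 CPM in KO replicates 1, 2 and 3, against 69.9, 30.5 and 81.5 CPM in WT, and no difference was detectable. Hexokinase Hk2 and the isomerase Gpi1, which make and convert glucose 6-phosphate, had log2 fold changes of -0.28 (SE 0.29) and -0.36 (SE 0.26). In the list of glucose entry 1 of 6 tested genes was called, beside 0.402% of all tested genes, and 5 were negative (median -0.32). Because the result of Pgm1 was known beforehand, nothing is read from that count.

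The suppliers of glutamine, acetyl-CoA and UTP had 10 of 13 tested genes negative (median -0.47) and none called. Slc38a2, an amino acid transporter that carries glutamine, averaged 742 ± 87.7 CPM in KO and 1027 ± 120 CPM in WT. Acly, which makes cytosolic acetyl-CoA from citrate, averaged 283 ± 63.7 CPM in KO and 450 ± 70.7 CPM in WT (SD, n = 3 each). In both genes every KO library lay below every WT library, with log2 fold changes of -0.47 (SE 0.19) and -0.67 (SE 0.25). Neither passed over all genes (edgeR adjusted p = 0.57 and 0.55). They were the 2 of 13 tested genes in this list whose groups did not overlap, beside 14.9% of all tested genes. Cad, which starts pyrimidine synthesis, stood at -0.22 (SE 0.26).

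Genes of salvage, turnover and sialic acid were not called (8 tested, 6 negative, median -0.39). Renbp, which epimerises N-acetylglucosamine, had the highest mean CPM of them, with 334 ± 47.2 CPM in KO and 243 ± 70.9 CPM in WT (SD, n = 3 each, log2 fold change 0.46, SE 0.28). Nans, a synthase of sialic acid, stood at -0.63 (SE 0.76). Other enzymes of UDP-sugar interconversion (7 tested, 3 negative, median 0.065) and the nucleotide-sugar transporters (5 tested, 2 negative, median 0.23) had no called gene. Uxs1, which turns UDP-glucuronic acid into UDP-xylose, stood at 1.35 (SE 0.90), and Galk2, a galactokinase family member, at 0.065 (SE 0.55). The transporters Slc35a1, Slc35b4 and Slc35d1 stood at 0.34, 0.31 and -0.60, with SEs of 0.92, 1.5 and 1.34.

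Among glycosyltransferases and folding sensors that use UDP-sugars, 10 of 14 tested genes were negative (median -0.41) and edgeR called none, while DESeq2 called Mgat3. Uggt1, which reglucosylates misfolded glycoproteins from UDP-glucose, averaged 316 ± 123 CPM in KO and 304 ± 32.4 CPM in WT (SD, n = 3 each, 0.053, SE 0.29). B4galt1, a galactosyltransferase, stood at -0.70 (SE 0.38), and Eogt, which puts GlcNAc on proteins inside the secretory pathway, at -0.0075 (SE 0.40). Mgat3, named after its values were seen, had no count in KO and counts of 13, 56 and 68 in WT (adjusted p = 0.47 with edgeR and 0.0048 with DESeq2). In glycosaminoglycan synthesis 5 of 11 tested genes were positive (median -0.00060) and edgeR called none, and the hyaluronan synthases Has1, Has2 and Has3 had no count in any library. Chpf, a chondroitin polymerising factor, averaged 76.3 ± 0.286 CPM in KO and 43.3 ± 12.2 CPM in WT (SD, n = 3 each, 0.82, SE 0.55), with every KO library above every WT library. In this list the groups did not overlap for 2 of 11 tested genes, both higher in KO, beside 14.9% of all tested genes in either direction. The heparan sulfate polymerases Ext1 and Ext2 stood at 0.54 (SE 0.58) and -0.39 (SE 1.23). B3gat3, which adds the glucuronic acid of the linker that joins glycosaminoglycans to proteins, had counts of 97, 158 and 126 in KO and none in WT. It was also named after its values were seen, and was not called by edgeR (adjusted p = 0.083), while DESeq2 (adjusted p = 4.99e-06) and edgeR with no count filter (adjusted p = 0.016) called it. No fold is given for Mgat3 and B3gat3, which averaged 0.879 and 1.31 molecule equivalents.

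In the list of glycogen metabolism 2 of 4 tested genes were negative (median -0.24) and edgeR called none. Pygb, the phosphorylase that releases glucose 1-phosphate from glycogen, averaged 137 ± 32.2 CPM in KO and 270 ± 14.8 CPM in WT (SD, n = 3 each). Each KO library lay below each WT library, with a log2 fold change of -0.98 (SE 0.30, adjusted p = 0.35 with edgeR and 0.023 with DESeq2). Pygb was the 1 of 4 tested genes in this list whose groups did not overlap, beside 14.9% of all tested genes. Gys1 and Gbe1, which build glycogen, stood at 0.50 (SE 1.42) and -1.11 (SE 1.49).

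**Figure D5:**
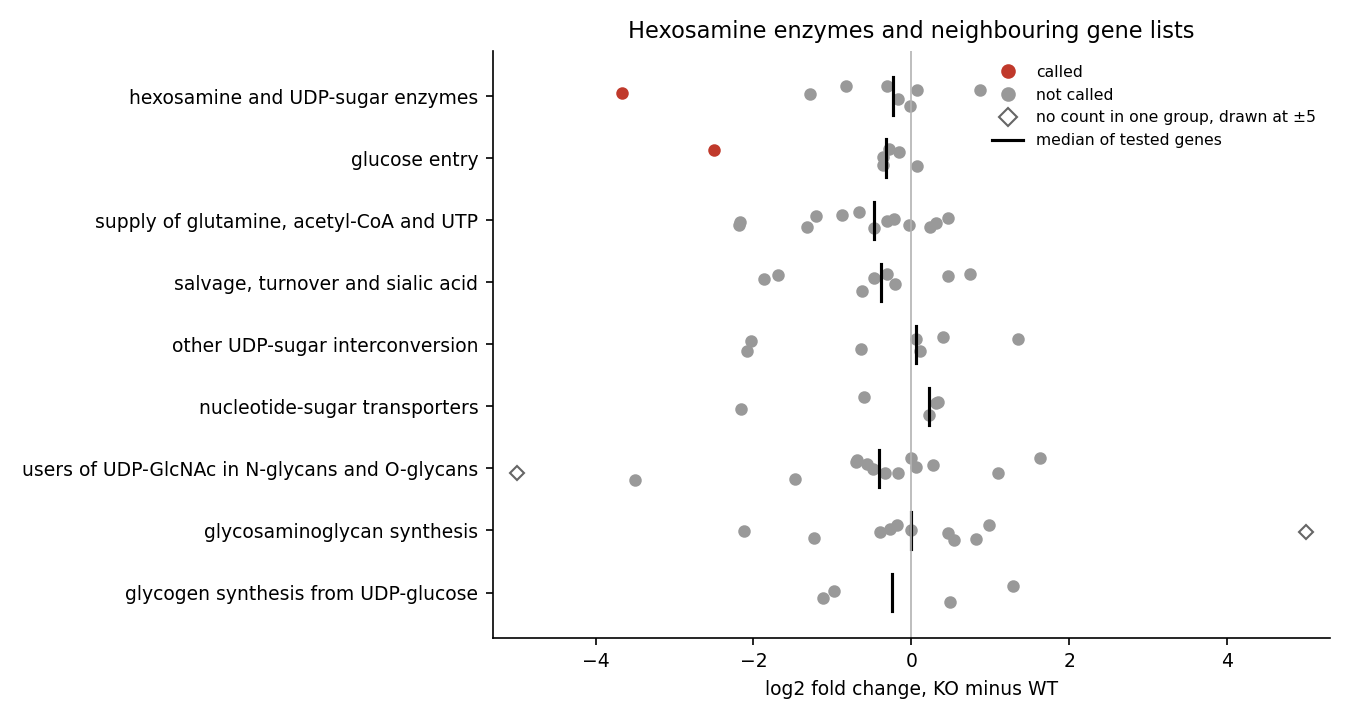
Log2 fold change, KO minus WT, of each tested gene in the hexosamine list and the 8 neighbouring lists, with black bars at the medians and called genes in red. Gfpt2 at -3.66 and Pgm1 at -2.51 are the called genes, and the open diamonds at the edges are Mgat3 and B3gat3, which have no count in 1 group.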

How the data were processed

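Ribosome-protected fragments were counted in 6 ID8 libraries, mapped to KO (3) and WT (3) and to replicate numbers by their titles. Per the labels' protocols, Cutadapt trimmed the adapters, Bowtie was used to discard reads of rRNA and tRNA, and HISAT2 (genome, GRCm38) and Bowtie (transcripts) aligned what was left. The submitters' processing notes add featureCounts and DESeq2 without versions. No source used here gives the annotation, the strand setting or whether duplicates were removed. The authors deposited raw counts per Ensembl gene (53465), of which 53360 matched GENCODE M21.

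The main test was edgeR 4.0.16 (R 4.3.3), quasi-likelihood with robust estimation, TMM factors, filterByExpr by group and Benjamini-Hochberg adjustment over 8200 genes. The same fit was run on simulated counts, whose spread was capped and in which reads did not repeat per molecule. That run does not show how the fit behaves on these libraries. Molecule equivalents divide counts by the peak of the smoothed histogram of gene counts (bandwidth 3, counts 8 to 150). Other settings were DESeq2 1.42.0, limma-voom (limma 3.58.1), other size factors and filters, molecule equivalents in place of counts, the replicate number as a block and single libraries left out. The members, lists and settings were chosen with earlier results of these data known. Named are the members, called genes and the 3 most abundant tested genes of each list, and the 3 genes most like Gfpt1 and Gfpt2 in log2 CPM, of which some are not reported here. Coding sequences are the longest per gene in GENCODE M21, and windows of 25 and 28 bases were searched on both strands of all transcripts and of the genome (GRCm38). Sequences were aligned with Biopython 1.88.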

Additional observations from a re-analysis of the deposited data

How the results depend on the processing

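Over all tested genes the count called, 33 of 8200, became 234 of 8200 with DESeq2 and 91 of 12794 with no count filter. With molecule equivalents in place of counts it was 110 of 968, and only 3 of the 8 enzymes were tested. The count over all tested genes ran from 6 to 29 without single libraries. Among the 8 enzymes the count, 1 (Gfpt2), became 0 with limma-voom, 0 with at least 50 counts in 3 libraries and 0 with the replicate block, and ran from 0 to 1 without single libraries. The cause was not tested. Gfpt2 was called in 8 of 15 other settings and kept its direction in each, from -4.70 to -3.12 on the log2 scale. In the neighbouring lists the count, 1 (Pgm1), became 4 with DESeq2 (adding Pygb, Mgat3 and B3gat3) and 2 with no count filter (adding B3gat3). It was 1 in each fit without a single library. Signs opposite to the main fold change occurred for Ugdh in 10 of 15 settings, Pgm3 in 2 of 13, Ogt in 2 of 14 and Ugp2 in 1 of 15, and in none for Gfpt1, Gnpnat1 and Uap1. The median over all genes moved by -0.12 with limma-voom and by 0.11 with library totals (log2). Same-numbered libraries did not deviate together (r from -0.017 to -0.0026 over genes). With few molecules for most genes, this check cannot decide whether the numbers pair the libraries. With the replicate block Gfpt2 stood at -4.26 and Pgm1 at -2.48. The values of Gnpnat1, Pgm3 and Uap1 rest on few molecule equivalents.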
